A study of Mus musculus with 12 samples.

Results

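The genes described here are those whose symbol starts with Psma, Psmb, Psmc, Psmd, Psme, Psmf or Psmg, the names given to the subunits, activators and assembly factors of the proteasome. A gene was taken when a probe set on the array carried its symbol and no other, and 42 of the 14860 genes measured that way, each with 1 of the 23332 probe sets, met the rule. Of the 42, 5 belong to the alpha rings of the core and 5 to its beta rings. A class of 5 holds the immunoproteasome, its PA28 activator and the thymic subunit Psmb11. In the cap, 6 belong to the ATPase ring, 2 to the rest of the base and 8 to the lid. Another 6 are assembly chaperones and 3 are other activators or regulators. The remaining 2, Psmc3ip and Psme3ip1, share the prefix but code for proteins that bind a subunit or activator and are not themselves subunits. No probe set with a single symbol was used for Psma4, Psma5, Psma8, Psmb3, Psmb5, Psmd1, Psme2, Psme2b or Psmg4, so the chymotrypsin-like catalytic subunit Psmb5 and the PA28 beta subunit Psme2 are not described.

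The proteasome degrades proteins tagged with ubiquitin. Its core is a stack of outer alpha and inner beta rings, in which Psmb5, Psmb6 and Psmb7 carry the catalytic sites, and its cap recognises, unfolds and feeds in the substrate through a ring of ATPases. Cells exposed to interferon-gamma replace the catalytic subunits by Psmb8, Psmb9 and Psmb10 to form the immunoproteasome, which cuts peptides for presentation on MHC class I, and the transcription factors NRF1 (gene Nfe2l1) and NRF2 (gene Nfe2l2) can raise subunit genes through antioxidant response elements (AREs) in their promoters. Hepatocytes, the bulk of the liver, turn over many secreted and metabolic proteins and depend on it like other cells.

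Liver RNA was measured on 1 Affymetrix Mouse Exon array per sample in 4 groups of 3 arrays labelled as biological replicates. All mice were 8 weeks old and of a mixed C57BL/6;129Sv background. Wild-type (Tiparp +/+) or knockout (Tiparp -/-) animals received corn oil, the vehicle, or the dioxin TCDD, a ligand of the aryl hydrocarbon receptor (AHR), by intraperitoneal injection at 30 µg per kg of body weight. Tiparp is an ADP-ribosyltransferase induced by AHR that represses it, and the series title asks how its deletion alters the response to dioxin. The labels give neither the time from dose to collection nor the construction of the knockout allele, and they do not say whether the genotypes were littermates. Values are log2 expression levels as deposited, and the number of arrays limits their precision.

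Tiparp averaged 7.39 in wild-type liver with corn oil and 10.52 with TCDD, and 6.29 and 6.81 in the knockout. No source used here says which exons its probe set reads. Hepatocyte markers were high on every array, with a mean over the 4 of 9 listed that were measured of 13.44 to 13.59. On the first principal component the knockout arrays with corn oil stood apart from the rest, at 45.84, 36.69 and 17.16, while the other 9 arrays lay between -30.45 and 7.99. In bulk liver, fewer cells of a type and less RNA per cell cannot be told apart.

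Promoter sequences are shown for 3 members because they carry the elements through which NRF factors, and AHR, are known to act. RefSeq promoter windows of GRCm38.p6, 300 bases each, were found for 35 of the 42 members. The letters searched on both strands were TGACNNNGC for the ARE core, GCGTG for the xenobiotic response element (XRE) core bound by AHR, TNGCGTG for an extended XRE, which contains the XRE core, and GAAA repeated after any 2 bases for the interferon-stimulated response element. Capitals mark the ARE core in Psmb6, a catalytic subunit, at chr11:70525107-70525356 (plus strand) and in Psmd9, a chaperone of the cap base, at chr5:123227940-123228189 (plus strand), and the extended XRE in Psmb9, a catalytic subunit of the immunoproteasome, at chr17:34187331-34187580 (minus strand). Each runs 5′ to 3′ on the strand of its gene and ends at the base before the annotated start.
Psmb6: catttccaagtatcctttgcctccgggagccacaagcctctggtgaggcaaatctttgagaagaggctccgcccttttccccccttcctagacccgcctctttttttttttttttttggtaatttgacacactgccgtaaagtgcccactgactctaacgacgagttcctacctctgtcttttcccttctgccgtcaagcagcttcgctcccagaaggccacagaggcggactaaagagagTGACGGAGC
Psmd9: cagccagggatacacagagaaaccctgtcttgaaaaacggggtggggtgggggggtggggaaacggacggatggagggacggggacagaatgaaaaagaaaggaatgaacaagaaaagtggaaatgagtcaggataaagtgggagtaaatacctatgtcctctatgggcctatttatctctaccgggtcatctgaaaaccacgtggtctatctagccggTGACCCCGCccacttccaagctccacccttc
Psmb9: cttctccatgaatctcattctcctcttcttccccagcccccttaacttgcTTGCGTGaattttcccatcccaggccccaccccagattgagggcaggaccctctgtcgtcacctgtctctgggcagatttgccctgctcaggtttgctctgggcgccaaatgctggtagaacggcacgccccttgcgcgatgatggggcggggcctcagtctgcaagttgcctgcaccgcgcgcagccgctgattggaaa

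The ARE core was present in the promoters of 5 of the 35 members (Psmb6, Psmc6, Psmd9, Psmd12 and Psme4), or 14.3%, against 14.0% of 27025 genes with a window. An XRE core was present in 17 members (48.6%, against 35.2% of genes), an extended XRE in Psmb9 and Psme4 (5.71% against 5.84%), and the interferon element in Psmd4, Psmd9 and Psme1 (8.57% against 3.99%). Shares were not adjusted for base composition, and a match is a run of letters, not a shown binding site.

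No member was called in any comparison. A call was an adjusted p below 0.05 from limma over all 23332 probe sets, and 0 of 42 members reached it for TCDD in wild-type liver, where 0.116% of all probe sets did, for TCDD in the knockout (5.58%), for knockout minus wild-type under corn oil (1.96%), for the same difference under TCDD (0.24%), or for the interaction, the difference between the TCDD effects of the genotypes (0.159%). At an unadjusted p below 0.05 the members numbered 1, 8, 16, 2 and 8 in that order, or 2.38%, 19.0%, 38.1%, 4.76% and 19.0%, against 7.28%, 22.1%, 19.3%, 11.9% and 14.8% of all probe sets. The lowest adjusted p among members was 0.666, 0.099, 0.0602, 0.374 and 0.147 in the same order. A member that missed the test is not thereby shown to be equal between groups, so the 95% confidence intervals give the limits. For TCDD in wild-type liver the interval lay within a 2-fold change for 41 of 42 members and within a 1.5-fold change for 39. In the knockout the counts were 42 and 34, between genotypes under corn oil 41 and 35, under TCDD 42 and 38, and for the interaction 40 and 25. The exception under corn oil was Psmb8, whose interval reached 1.03, and the exception for TCDD in wild-type was Psmb11, whose interval reached -1.12.

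**Figure D1:**
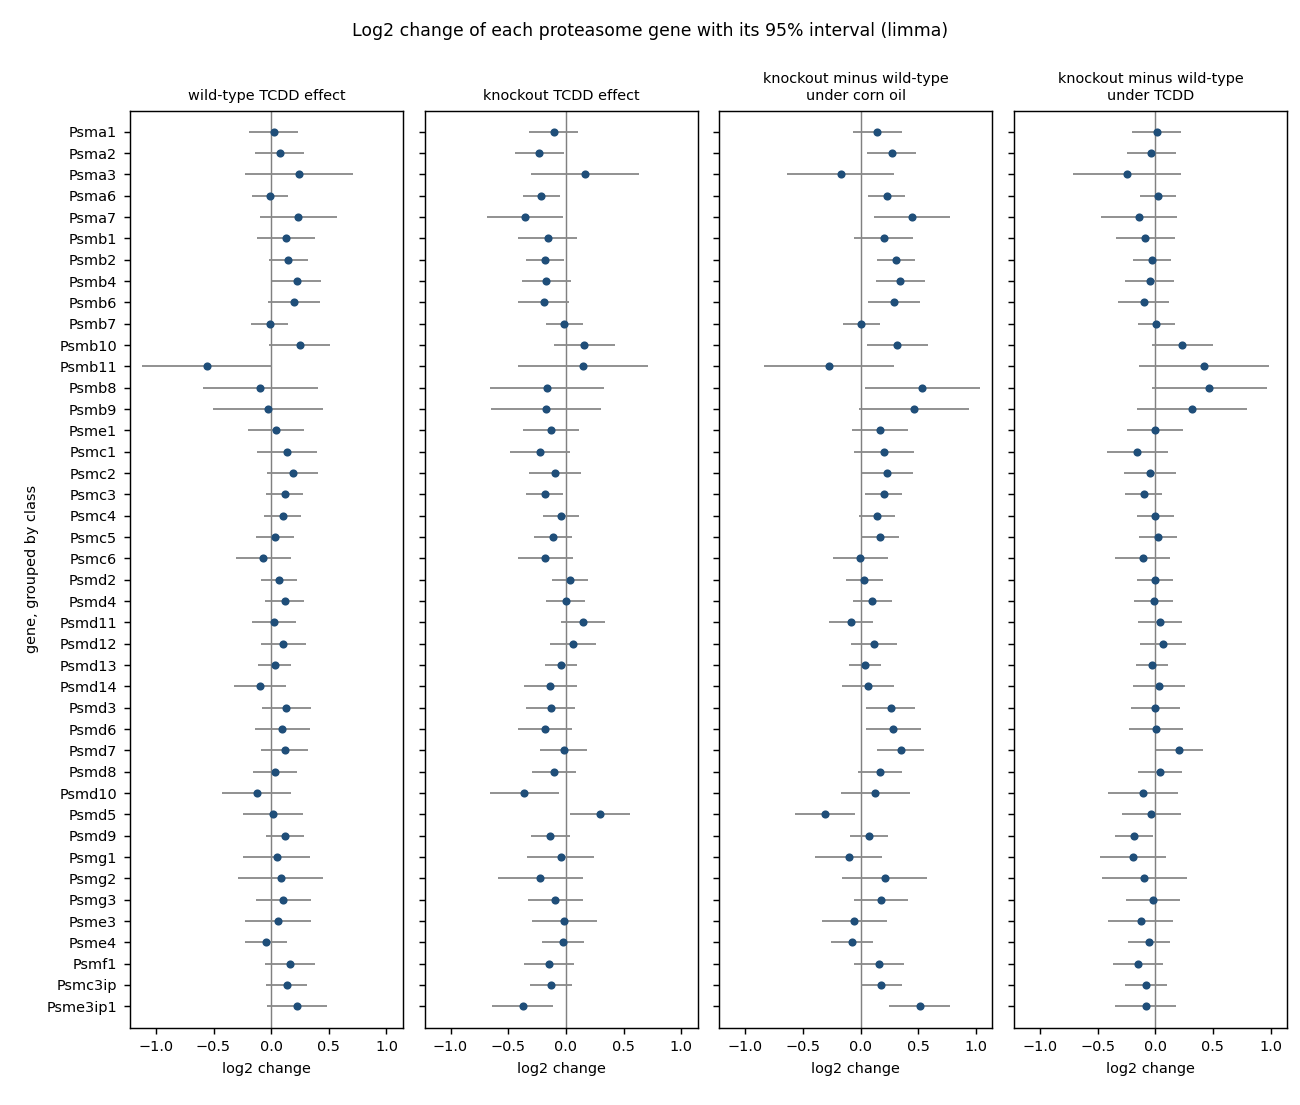
Log2 change (points) and 95% confidence interval from limma (bars) of the 42 proteasome genes, grouped by class, in 4 comparisons. Most points for knockout minus wild-type under corn oil lie to the right of 0 and most for TCDD in the knockout to the left, by less than 1 in every case, and no gene passed the test after adjustment.

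Although single genes were not called, the members lay to 1 side of 0 more often than probe sets in general. Under corn oil 34 of 42 (81.0%) were above 0 in the knockout, with a median log2 difference of 0.17, while 56.8% of all probe sets were above 0 with a median of 0.03. With TCDD in the knockout 34 of 42 (81.0%) were below 0, with a median of -0.13, against 58.6% and -0.05 for all probe sets. Without knockout TCDD replicate 1 that median of the members was -0.06. With TCDD in wild-type liver 33 of 42 (78.6%) were above 0, with a median of 0.09, against 52.1% and 0.01. Among probe sets with 1 symbol, from which the members come, the shares on the same side were 57.9%, 57.8% and 55.6% in that order. The members are parts of 1 complex measured on the same arrays and are not independent, so these shares are descriptions with no test. The corn oil comparison and the TCDD effect in the knockout use the same 3 knockout corn oil arrays, with opposite signs. Those arrays also had the highest array medians, 6.98 to 7.00 against 6.91 to 6.96 in the other groups. The shares and medians here, and those of each class below, are of the deposited values and are not given after centring.

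Averaged over the 42 members, the wild-type corn oil arrays read 9.51, 9.44 and 9.55, the wild-type TCDD arrays 9.48, 9.65 and 9.57, the knockout corn oil arrays 9.63, 9.69 and 9.64, and the knockout TCDD arrays 9.48, 9.59 and 9.60. All 3 knockout corn oil arrays were thus above all 3 wild-type corn oil arrays and above all 3 knockout TCDD arrays, whereas wild-type TCDD replicate 2 lay within their range. The mean was 9.50 ± 0.06 in wild-type corn oil, then 9.56 ± 0.09 in wild-type TCDD, 9.65 ± 0.03 in knockout corn oil and 9.56 ± 0.07 in knockout TCDD (SD, n = 3). The knockout corn oil group had the highest mean of the 4 groups for 28 of 42 members (66.7%, against 36.2% of all probe sets), and the wild-type corn oil group had the lowest for 25 (59.5%, against 26.8%). Replicates spread less for the members than for probe sets in general, with a median SD of 0.10, 0.10, 0.07 and 0.07 in the groups as listed, against 0.13, 0.14, 0.16 and 0.14. The gap was smaller against probe sets with 1 symbol, from which the members come. The median SE of a pairwise log2 change was 0.099 for the members, 0.113 for those probe sets and 0.135 for all.

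**Figure D2:**
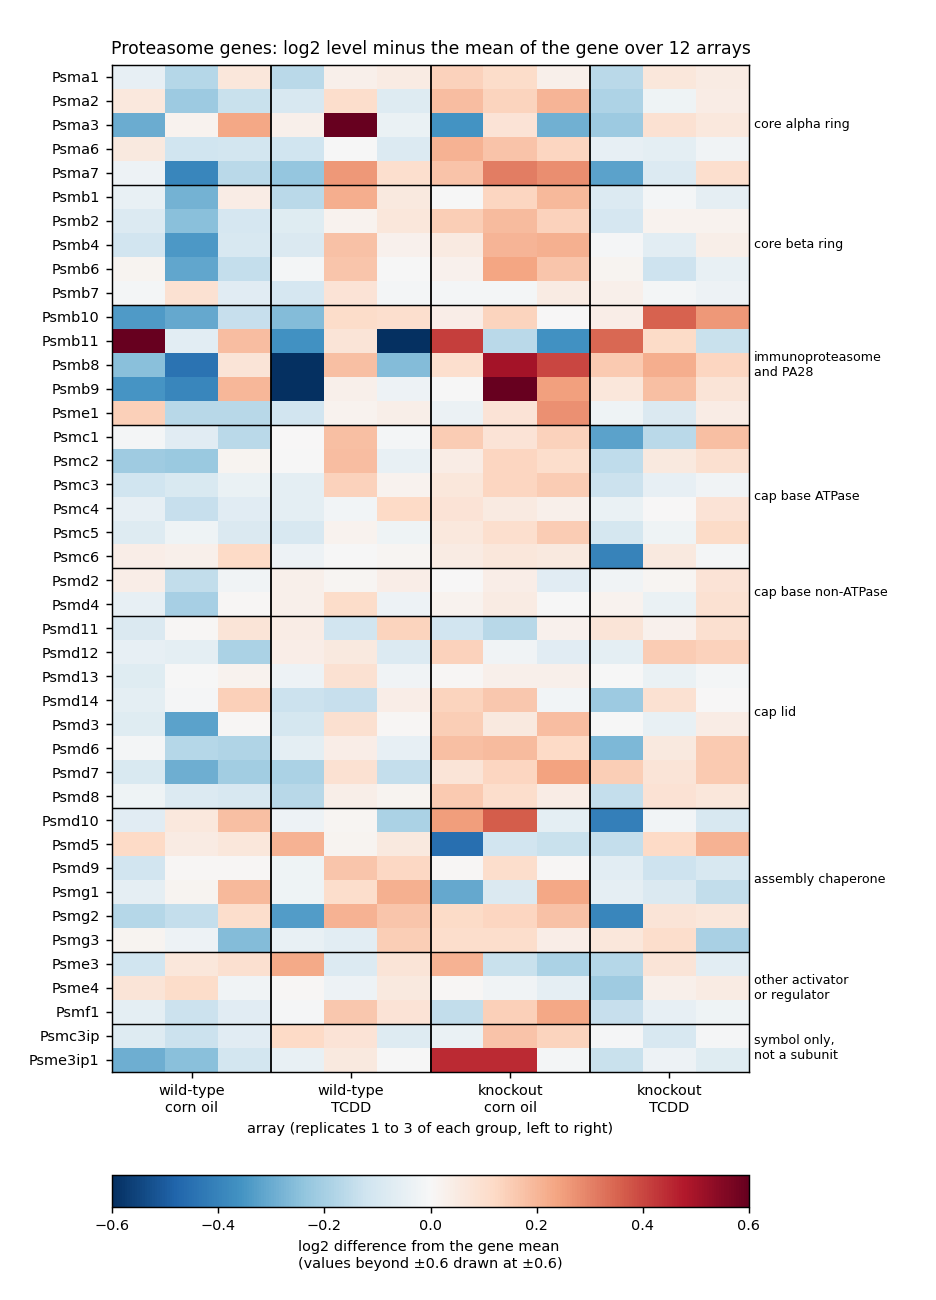
Log2 level of each proteasome gene on each of the 12 arrays, minus the mean of that gene over all arrays (colour, values beyond 0.6 drawn at 0.6), with genes in rows grouped by class. The 3 knockout corn oil columns are mostly red (above the mean) and the wild-type corn oil columns mostly blue (below it). Psmb8, Psmb9, Psmb11 and Psma3 are among the genes that differ most between arrays of 1 group.

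Groups whose arrays did not overlap were counted for each gene. Under corn oil, 21 of 42 members (50.0%) had all 3 knockout arrays above all 3 wild-type arrays, against 13.5% of all probe sets, and 1 member (2.38%), the base chaperone Psmd5, had them below, against 8.36%. With TCDD in the knockout, 13 members (31.0%) had all TCDD arrays below all corn oil arrays, against 15.6%, and 0 had them above, against 7.92%. The array medians were 6.98 to 7.00 in knockout corn oil and 6.91 to 6.96 in the other groups. When every array was instead centred on the common median, 5 of 42 members were lower with TCDD in the knockout, against 11.3% of all probe sets. After a second quantile normalization 6 of 42 were, against 10.5%. The excess of the members in that comparison was thus much smaller than with the deposited values. The corn oil count was 15 and 18 of 42 under those settings, well above the 9.93% and 10.2% of all probe sets. In wild-type liver TCDD gave 4 members with no overlap upwards (9.52%, against 7.74%), namely Psmb2, Psmb4, Psmf1 and Psme3ip1, and 1 downwards, Psmc6 (2.38%, against 6.0%). Between genotypes under TCDD the counts were 1 upwards, Psmb9 (2.38%, against 6.63%), and 3 downwards, Psmd9, Psmf1 and Psmg1 (7.14%, against 11.7%), so there the shares of the members were below those of all probe sets.

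**Figure D3:**
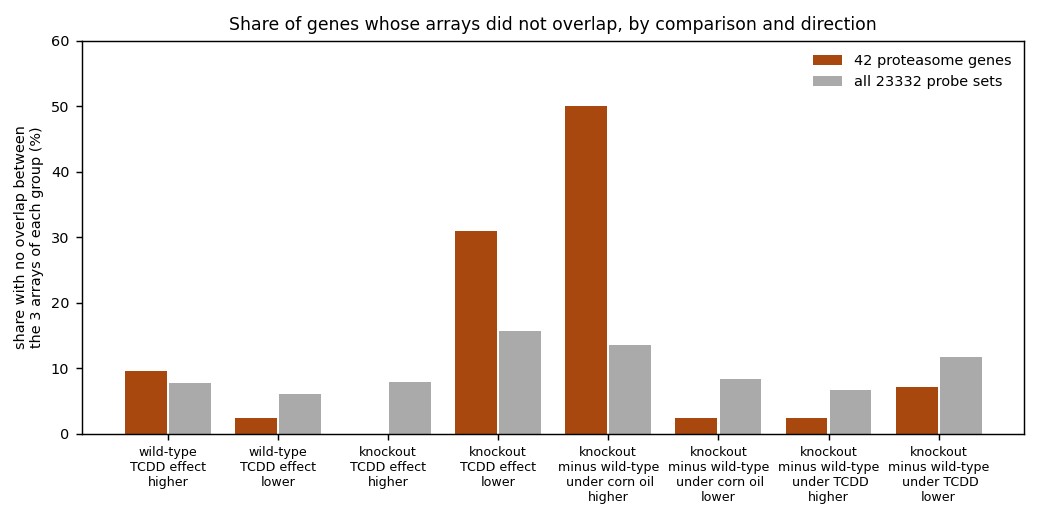
Share of genes (%) whose 3 arrays in 1 group all lay above or all below the 3 arrays of the other, for the 42 proteasome genes and for all 23332 probe sets. The bars differ most for knockout above wild-type under corn oil, 50.0% of the proteasome genes against 13.5%.

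The alpha rings of the core form the gate through which substrates enter. Of their 5 measured subunits, 4 lay above 0 for knockout minus wild-type under corn oil (median 0.23) and 4 of 5 below 0 for TCDD in the knockout (median -0.21). Psma7, the alpha4 subunit, had the widest difference of the class. It read 8.95, 8.59 and 8.82 in wild-type corn oil, 8.75, 9.24 and 9.08 in wild-type TCDD, 9.15, 9.29 and 9.26 in knockout corn oil and 8.66, 8.90 and 9.08 in knockout TCDD. The knockout corn oil arrays did not overlap with wild-type corn oil or with knockout TCDD and lay above both, by 0.45 ± 0.15 over wild-type corn oil (SE; adjusted p = 0.138, limma) and with a TCDD effect in the knockout of -0.35 ± 0.15 (SE; adjusted p = 0.196). Psma2 and Psma6, the alpha2 and alpha1 subunits, likewise showed no overlap in either comparison, with corn oil differences of 0.27 and 0.23 and TCDD effects in the knockout of -0.23 and -0.21. Psma3 read between 4.13 and 5.17 over the 12 arrays and had a mean in the lowest 25% of probe sets.

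The beta rings hold the catalytic chamber. All 5 measured members lay above 0 in the knockout under corn oil (median 0.29) and all 5 below 0 with TCDD in the knockout (median -0.17). Psmb4, the beta7 subunit, read 11.86, 11.63 and 11.88 in wild-type corn oil, then 11.89, 12.15 and 12.00 in wild-type TCDD, 12.03, 12.18 and 12.19 in knockout corn oil and 11.97, 11.91 and 12.01 in knockout TCDD. Every wild-type TCDD array was above every wild-type corn oil array, and every knockout TCDD array was below every knockout corn oil array. The differences were 0.22 ± 0.10 for TCDD in wild-type (adjusted p = 0.666), -0.17 ± 0.10 for TCDD in the knockout (adjusted p = 0.34) and 0.34 ± 0.10 between genotypes under corn oil (SE; adjusted p = 0.0913, limma).

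Psmb2, the beta4 subunit, was singled out after its values were seen. It read 11.83, 11.66 and 11.81 in wild-type corn oil, then 11.84, 11.93 and 11.98 in wild-type TCDD, 12.06, 12.10 and 12.05 in knockout corn oil and 11.81, 11.93 and 11.93 in knockout TCDD. Its knockout corn oil arrays were the 3 highest of the 12. The difference between genotypes under corn oil was 0.30 ± 0.07 (SE; adjusted p = 0.0693, limma), a 1.23-fold difference. That p fell below the threshold with robust and trended empirical Bayes and when the lowest 25% of probe sets was left out.

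Of the catalytic subunits, Psmb6 (beta1, caspase-like), whose promoter with an ARE core is printed above, read 10.26, 9.93 and 10.10 in wild-type corn oil, then 10.23, 10.41 and 10.24 in wild-type TCDD, 10.27, 10.48 and 10.41 in knockout corn oil and 10.26, 10.12 and 10.20 in knockout TCDD. Knockout corn oil was above wild-type corn oil and above knockout TCDD with no overlap, in each case by a margin of 0.01 at the nearest arrays, and the difference between genotypes was 0.29 ± 0.10 (SE; adjusted p = 0.151, limma). Psmb7 (beta2, trypsin-like) hardly varied. It read 10.52, 10.62 and 10.46 in wild-type corn oil, then 10.43, 10.61 and 10.52 in wild-type TCDD, 10.52, 10.52 and 10.58 in knockout corn oil and 10.56, 10.52 and 10.50 in knockout TCDD. All groups of Psmb7 overlapped, and its 4 differences were between -0.01 and 0.01, with 95% intervals between -0.17 and 0.17.

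The class of the immunoproteasome subunits, PA28 alpha and the thymic subunit Psmb11 had a median SE of 0.22, against 0.10 for all members. The SE was 0.25 for Psmb11 and 0.22 for Psmb8 and Psmb9, but 0.12 for Psmb10 and 0.11 for Psme1. Knockout liver had the higher group mean for Psmb8, Psmb9 and Psmb10 under both treatments, by 0.54, 0.46 and 0.32 under corn oil and by 0.47, 0.32 and 0.23 under TCDD, and none was called (adjusted p = 0.225, 0.275 and 0.179 under corn oil and 0.449, 0.613 and 0.478 under TCDD, limma). The TCDD effect was between -0.17 and 0.25 in either genotype for these 3 genes.

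Psmb8 (beta5i, LMP7) read 7.32, 7.13 and 7.65 in wild-type corn oil, then 6.76, 7.75 and 7.31 in wild-type TCDD, 7.67, 8.07 and 7.97 in knockout corn oil and 7.73, 7.79 and 7.70 in knockout TCDD. The knockout corn oil arrays were all above the wild-type ones, by 0.02 at the nearest pair, and under TCDD the groups overlapped because wild-type replicate 2 read as high as the knockout. Psmb9 (beta1i, LMP2), whose promoter with an extended XRE is printed above, read 7.73, 7.69 and 8.28 in wild-type corn oil, then 7.46, 8.11 and 8.05 in wild-type TCDD, 8.08, 8.68 and 8.33 in knockout corn oil and 8.15, 8.26 and 8.16 in knockout TCDD. Here the genotypes overlapped under corn oil and did not under TCDD.

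Psmb10 (beta2i, MECL-1) read 8.85, 8.88 and 9.05 in wild-type corn oil, 8.93, 9.30 and 9.29 in wild-type TCDD, 9.23, 9.32 and 9.19 in knockout corn oil and 9.23, 9.54 and 9.45 in knockout TCDD. Its genotypes did not overlap under corn oil and overlapped under TCDD. Psme1, the PA28 alpha subunit that opens the gate of the core, read 10.19, 9.88 and 9.88 in wild-type corn oil, then 9.93, 10.07 and 10.08 in wild-type TCDD, 10.01, 10.13 and 10.32 in knockout corn oil and 10.02, 9.96 and 10.09 in knockout TCDD. The groups of Psme1 overlapped in every comparison, and its differences ran from -0.13 to 0.17.

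Psmb11, the beta5t subunit of the thymic cortex, had a mean in the lowest 25% of probe sets. It read 6.00, 5.34 and 5.59 in wild-type corn oil, then 5.04, 5.48 and 4.75 in wild-type TCDD, 5.82, 5.24 and 5.04 in knockout corn oil and 5.75, 5.52 and 5.27 in knockout TCDD. The change of -0.55 ± 0.25 with TCDD in wild-type was the largest in size of any member in that comparison, with overlapping arrays (SE; adjusted p = 0.692, limma).

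**Figure D4:**
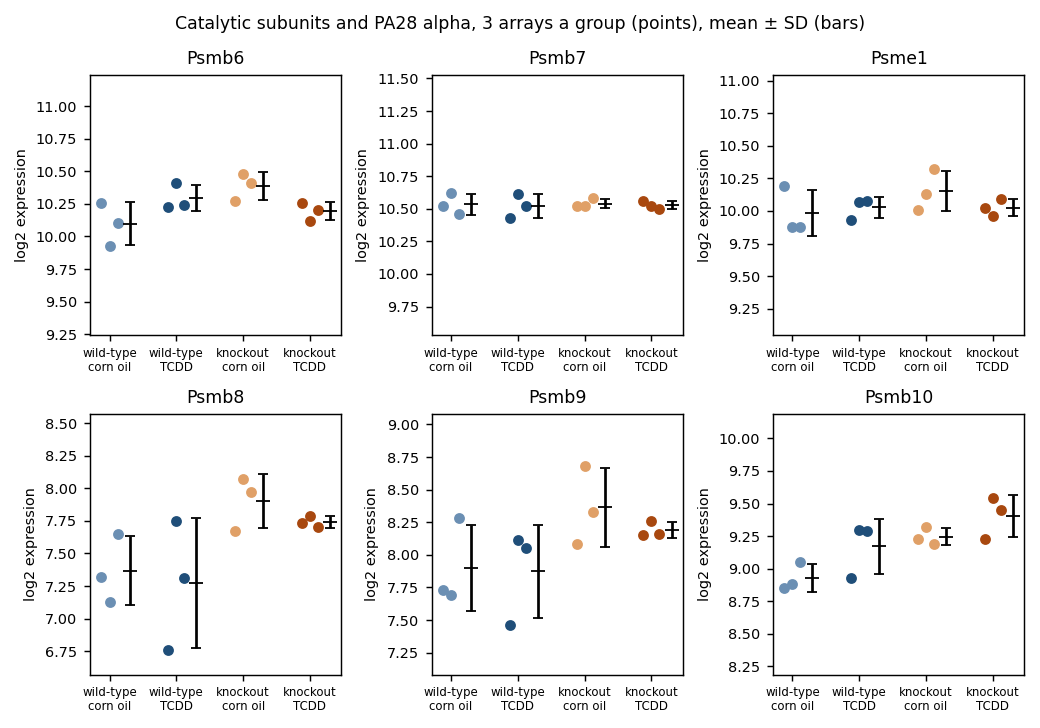
Log2 expression of the catalytic subunits Psmb6 and Psmb7, the immunoproteasome subunits Psmb8, Psmb9 and Psmb10, and PA28 alpha (Psme1) on each array (points, 3 a group), with the mean and SD (bars), each panel spanning the same height. Psmb7 lies level in all 4 groups, and Psmb8 and Psmb9 vary most among the wild-type arrays.

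Class I antigen presentation is the pathway that the immunoproteasome feeds. Of 18 genes listed beside it, 12 were measured, and 0 were called by limma in each of the 5 comparisons. The 12 include the interferon-linked genes Gbp2, Irgm1, Irf1 and Irf8, which are not themselves parts of that pathway. For knockout minus wild-type under corn oil 3 had an unadjusted p below 0.05, where 19.3% of all probe sets did. They were Gbp2 (1.01), Irgm1 (0.59) and Tapbp (0.24). Over all 12 the median difference between genotypes was 0.20 under corn oil, with 10 of 12 above 0 against 56.8% of all probe sets. Under TCDD it was 0.11, again with 10 of 12 above 0, against 43.9%. Tap1, the peptide transporter gene beside Psmb9 in the MHC region, differed by 0.42 ± 0.23 under corn oil and 0.12 ± 0.23 under TCDD (SE). The MHC light chain B2m differed by 0.02 and 0.01.

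Markers of other liver cell types were read beside these genes. All 8 measured Kupffer cell and macrophage markers, of 10 symbols listed, were above 0 in the knockout under both treatments, with medians of 0.20 and 0.28. Of all probe sets, 56.8% were above 0 under corn oil and 43.9% under TCDD. The mean level of these 8 ran from 8.63 to 9.27 on the wild-type corn oil arrays and 8.25 to 9.04 on the wild-type TCDD arrays. It ran from 9.14 to 9.48 on the knockout corn oil arrays and 8.94 to 9.07 on the knockout TCDD arrays. Only Marco, a scavenger receptor of macrophages, was called in these 2 comparisons, at 1.13 under corn oil (adjusted p = 0.0351, limma), where 1.96% of all probe sets were called. For TCDD in the knockout 2 of the 8 were above 0 (median -0.22), against 40.7% of all probe sets. There Marco was called at -1.05 (adjusted p = 0.0165, limma), where 5.58% were called. For TCDD in wild-type 0 of the 8 were above 0 (median -0.225), against 52.1%, and 0 were called. All 7 measured neutrophil markers of 8 were above 0 in the knockout under corn oil, with a mean level of 6.15 to 6.41 against 5.78 to 5.98 in wild-type and Retnlg called at 1.71 (adjusted p = 0.0456, limma). Under TCDD 4 of the 7 were above 0, with a median of 0.02. The TCDD effect on these 7 was above 0 for 2 in the knockout (median -0.22) and for 6 in wild-type (median 0.15). Of the 10 of 12 lymphocyte markers measured, 6 were above 0 under corn oil and 9 under TCDD, and of the 5 of 8 dendritic cell markers, 4 and 5. By limma 0 of them were called. At an unadjusted p below 0.05 there were 1 and 2 lymphocyte and 0 dendritic cell markers, against 19.3% and 11.9% of all probe sets. The TCDD effect in the knockout was above 0 for 8 of the 10 lymphocyte and 2 of the 5 dendritic cell markers. All 9 endothelial markers lay below 0 with TCDD in the knockout (median -0.54), against 58.6% of all probe sets. By limma 5 of them were called, against 5.58%, with a mean level of 9.12 to 9.32 against 9.65 to 9.78 with corn oil. All 9 also lay below 0 with TCDD in wild-type (median -0.25), against 46.9% of all probe sets, where 33 of 42 proteasome genes lay above 0. Their mean level there was 9.12 to 9.17 against 9.37 to 9.58. In that comparison 0 were called by limma and 5 had an unadjusted p below 0.05, against 7.28% of all probe sets. Between genotypes under corn oil 6 of the 9 were above 0 in the knockout (median 0.17), against 56.8%, and 0 were called. There 4 had an unadjusted p below 0.05, against 19.3%, and the mean level was 9.65 to 9.78 against 9.37 to 9.58 in wild-type. Between genotypes under TCDD 2 of the 9 were above 0 (median -0.07), against 43.9%, and 0 were called. The part of these cell types in the proteasome values was not tested.

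The ATPases of the cap base, Psmc1 to Psmc6, unfold the substrate and push it into the core. All 6 were measured. For TCDD in the knockout 6 of 6 lay below 0 (median -0.14), and under corn oil 5 of 6 lay above 0 in the knockout (median 0.18) and Psmc6 did not. Psmc2 (Rpt1) read 9.05, 9.04 and 9.28 in wild-type corn oil, then 9.26, 9.45 and 9.22 in wild-type TCDD, 9.31, 9.39 and 9.37 in knockout corn oil and 9.11, 9.32 and 9.36 in knockout TCDD. Its corn oil arrays did not overlap between genotypes, and the difference was 0.23 ± 0.10 (SE; adjusted p = 0.237, limma).

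The rest of the base holds the scaffold Psmd2 and the ubiquitin receptor Psmd4, which lay within 0.12 of 0 in all 4 pairwise comparisons. Psmd4 (Rpn10) read 9.26, 9.11 and 9.32 in wild-type corn oil, then 9.34, 9.42 and 9.28 in wild-type TCDD, 9.33, 9.36 and 9.31 in knockout corn oil and 9.33, 9.27 and 9.40 in knockout TCDD. The groups overlapped throughout, and its widest difference was 0.12 ± 0.08 with TCDD in wild-type (SE; adjusted p = 0.815, limma).

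The lid removes ubiquitin from the substrate through the deubiquitinase Psmd14. Of its 8 measured members, 7 lay above 0 in the knockout under corn oil (median 0.14) and 6 below 0 with TCDD in the knockout (median -0.07). Psmd7 (Rpn8), the partner of Psmd14, read 10.01, 9.81 and 9.89 in wild-type corn oil, then 9.91, 10.19 and 9.96 in wild-type TCDD, 10.18, 10.23 and 10.34 in knockout corn oil and 10.25, 10.18 and 10.26 in knockout TCDD. All 6 knockout arrays read 10.18 or more, a level that 1 of 6 wild-type arrays reached. The difference between genotypes was 0.35 ± 0.09 under corn oil (adjusted p = 0.0811) and 0.21 ± 0.09 under TCDD (SE; adjusted p = 0.405, limma), and TCDD in the knockout moved it by -0.02. Psmd3 (Rpn3) and Psmd6 (Rpn7) had differences of 0.26 and 0.28 under corn oil and of 0.00 and 0.01 under TCDD.

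The chaperones assemble the rings and leave before the proteasome is complete. All 6 measured chaperones lay below 0 for knockout minus wild-type under TCDD (median -0.10). Psmd10 (gankyrin), which binds an ATPase of the base, read 8.80, 8.93 and 9.05 in wild-type corn oil, 8.84, 8.88 and 8.68 in wild-type TCDD, 9.12, 9.23 and 8.81 in knockout corn oil and 8.46, 8.85 and 8.77 in knockout TCDD. Its TCDD effect in the knockout was -0.36 ± 0.14, and knockout corn oil replicate 3 overlapped the TCDD arrays (SE; adjusted p = 0.153, limma). Psmd5, another base chaperone, went against most of the members. It read 9.60, 9.53 and 9.55 in wild-type corn oil, then 9.69, 9.50 and 9.54 in wild-type TCDD, 9.03, 9.37 and 9.35 in knockout corn oil and 9.34, 9.60 and 9.69 in knockout TCDD. The knockout corn oil arrays were all below the wild-type ones, by -0.31 ± 0.12, and TCDD in the knockout gave 0.29 ± 0.12 with overlapping arrays (SE; adjusted p = 0.183 and 0.174, limma). Psmd9, whose promoter with an ARE core is printed above, differed between genotypes under TCDD by -0.18 ± 0.07 with no overlap (SE; adjusted p = 0.374). Psmd5 and Psmd9 were singled out after their values were seen.

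Among the other regulators, the nuclear activators Psme3 (PA28 gamma) and Psme4 (PA200) lay within 0.13 of 0 in all pairwise comparisons. Psmf1 (PI31), which can bind the core, read 10.33, 10.26 and 10.32 in wild-type corn oil, then 10.38, 10.55 and 10.47 in wild-type TCDD, 10.24, 10.53 and 10.62 in knockout corn oil and 10.25, 10.34 and 10.36 in knockout TCDD. The wild-type TCDD arrays were all above the wild-type corn oil arrays, by 0.16 ± 0.10 (SE; adjusted p = 0.79, limma), and all above the knockout TCDD arrays, by a log2 difference of 0.15 in size.

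Psme3ip1, which shares the prefix but is an interactor of Psme3, had the lowest adjusted p of the 42 in 3 of the comparisons. It read 9.41, 9.45 and 9.59 in wild-type corn oil, then 9.66, 9.76 and 9.70 in wild-type TCDD, 10.15, 10.15 and 9.69 in knockout corn oil and 9.57, 9.67 and 9.63 in knockout TCDD. Knockout corn oil replicates 1 and 2 were the highest of the 12 arrays, and replicate 3 lay at the level of the TCDD arrays. The difference between genotypes under corn oil was 0.51 ± 0.12 (adjusted p = 0.0602), TCDD in the knockout gave -0.37 ± 0.12 (adjusted p = 0.099), and the interaction was -0.60 ± 0.17 (SE; adjusted p = 0.147, limma). Without knockout corn oil replicate 3 all 3 were called, at 0.67 (adjusted p = 0.00422), -0.53 (adjusted p = 0.00596) and -0.75 (adjusted p = 0.0188).

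The interaction lay below 0 for 37 of 42 members (88.1%), with a median of -0.14, against 58.4% and -0.05 for all probe sets. It contains the knockout corn oil arrays with a minus sign and so is not separate from the comparisons above. Between genotypes under TCDD the median was -0.03, against -0.03 for all probe sets, with 14 members above and 26 below 0. That median was 0.03 after a second quantile normalization, so it has no stable sign. When the knockout TCDD arrays were set against the wild-type corn oil arrays instead of their own controls, the median of the members was 0.05.

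Nfe2l2, which codes for NRF2, averaged 11.00 ± 0.12 in wild-type corn oil, then 12.02 ± 0.05 in wild-type TCDD, 10.73 ± 0.24 in knockout corn oil and 12.67 ± 0.06 in knockout TCDD (SD, n = 3). It rose with TCDD by 1.02 ± 0.11 in wild-type (adjusted p = 0.00938) and by 1.94 ± 0.11 in the knockout (SE; adjusted p = 5.87e-05, limma), with no overlap in either. Nfe2l1, which codes for NRF1, changed by 0.08 ± 0.16 and -0.16 ± 0.16 (SE) and was not called. Of the 13 of 16 listed symbols of this control pathway that were measured, TCDD in the knockout raised Nfe2l2 and Maff, a small MAF partner of NRF factors (1.10 ± 0.10, SE; adjusted p = 0.000353), and Ufd1, a cofactor of the VCP segregase, fell by 0.52 ± 0.08 (SE; adjusted p = 0.00576). Ufd1 was higher in the knockout under corn oil, by 0.46 ± 0.08 (SE; adjusted p = 0.0336), and Maff under TCDD, by 1.03 ± 0.10 (SE; adjusted p = 0.0021). Of all probe sets, 0.116% were called with TCDD in wild-type and 5.58% with TCDD in the knockout. Between genotypes 1.96% were called under corn oil and 0.24% under TCDD.

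Antioxidant targets of NRF2 were read on the same arrays. Of the 11 of 16 that were measured, Nqo1 and Srxn1 were called higher with TCDD in wild-type, by 1.62 and 1.03, where 0.116% of all probe sets were called. In the knockout, where 5.58% were, 5 were called higher, Nqo1 by 3.04, Gclc by 2.26, Srxn1 by 1.97, Pgd by 1.00 and Cbr3 by 0.82. Between genotypes Gclc was called at -1.32 under corn oil (adjusted p = 0.0473, limma) and differed by 0.42 under TCDD (adjusted p = 0.605, limma). The other members of that list were not called for TCDD in either genotype. In the knockout Gsr was at 0.52, Gstm1 at 0.04, Gstm3 at -0.05, Slc7a11 at -0.15, Gsta4 at -0.44 and Hmox1 at -0.49, so 4 of the 11 lay below 0. Hmox1 was called higher in the knockout under corn oil, at 0.72 (adjusted p = 0.0474, limma). Over all 11 the changes ran from -0.20 to 1.62 in wild-type (median 0.35) and from -0.49 to 3.04 in the knockout (median 0.52). The 42 proteasome genes ran from -0.55 to 0.25 in wild-type and from -0.37 to 0.29 in the knockout on the same scale. Among them, the 5 members with an ARE core in the promoter ran from -0.07 to 0.20 in wild-type and from -0.19 to 0.06 in the knockout. The part of NRF1 or NRF2 in the proteasome values was not tested.

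**Figure D5:**
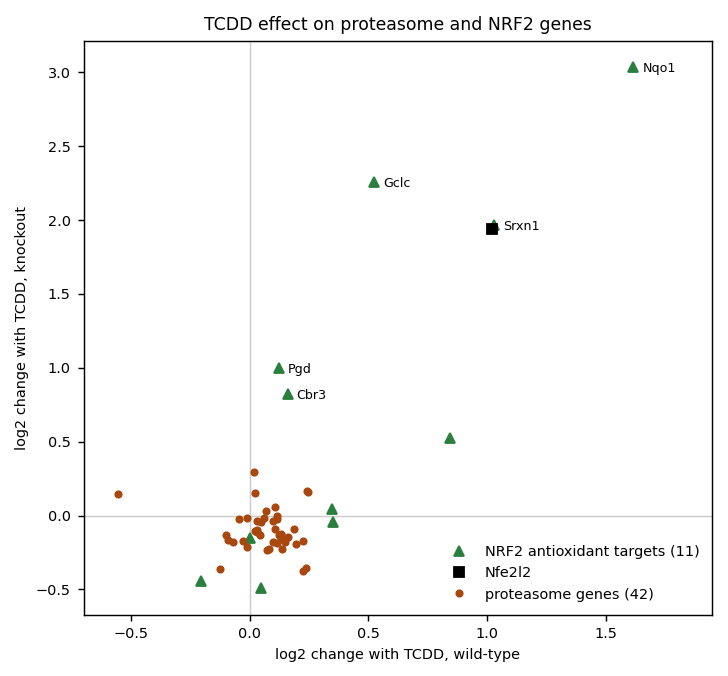
Log2 change with TCDD in wild-type (x axis) and in knockout liver (y axis) for the 42 proteasome genes, 11 NRF2 antioxidant targets and Nfe2l2, all from limma. The proteasome genes lie between -0.55 and 0.29 on both axes, a range that some NRF2 targets share, while Nqo1 reaches 1.62 and 3.04.

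Of 20 proteasome partners that the naming rule leaves out, 15 were measured. Of these 15, 2 were called, in opposite directions, both with TCDD in the knockout, where 5.58% of all probe sets were called. Ecpas, a scaffold that binds the proteasome, read 9.62, 9.66 and 9.76 in knockout corn oil and 10.40, 10.66 and 10.79 in knockout TCDD. It rose by 0.94 ± 0.10 (SE; adjusted p = 0.00121, limma). Zfand2a, a proteasome-associated zinc finger protein induced by arsenite, fell by 0.57 ± 0.13 (SE; adjusted p = 0.0379). Sem1, a small subunit of the lid without the prefix, differed by 0.28 between genotypes under corn oil and by -0.29 with TCDD in the knockout, and neither was called. Of 11 listed genes for ubiquitin and the enzymes that attach it, 5 were measured. They were Uba6, an E1, and the conjugating enzymes Ube2n, Ube2d1, Ube2d3 and Ube2l6, with no ubiquitin gene among them. These 5 gave 0 calls by limma in the 5 comparisons. Uba6 alone had an unadjusted p below 0.05, for TCDD in the knockout, where 22.1% of all probe sets did.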

How the data were processed

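Total RNA from 12 mouse livers was labelled with biotin and read on Affymetrix Mouse Exon 1.0 ST arrays, 1 for each liver, per the labels' protocols. The deposited values are log2 expression levels that the authors made with RMA in Affymetrix Expression Console, with mm9 as the build, per the submitters' processing notes. No source used here gives versions, probe set level or RMA settings. The deposited values entered the fit without scaling or filtering, and 0 columns were left unmapped.

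Gene symbols came from the platform annotation supplied with the series. The 4 probe sets that name a proteasome gene beside another gene were not used, and no member had more than 1 probe set. A group-means model over all 12 arrays was fitted to every probe set with limma 3.58.1 (R 4.3.3), with 8 residual and 2.19 prior degrees of freedom. P-values are two-sided, with Benjamini-Hochberg adjustment over 23332 probe sets within each of 5 comparisons, and every adjusted p in the text comes from limma. The fit was tested on simulated data with known changes. SE values are of log2 changes, and SD values are of 3 arrays. With 3 arrays against 3, an exact permutation test of 1 gene cannot go below p = 0.1, so none was run.

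Values on every array are given for the member with the widest pairwise change in each class, the catalytic subunits and Psme1, and for others singled out by name. The members, classes and gene lists were chosen with earlier results of these data known. Levels were not compared between genes. Promoter windows came from a RefSeq table of GRCm38.p6. Alternatives were a replicate block, only the arrays of the compared groups, quantile normalization again, median centring, robust and trended empirical Bayes, dropping the lowest 25% of probe sets, an adjusted p below 0.01, the lowest probe set of a gene, leaving out each array, and knockout TCDD set against wild-type corn oil.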

Additional observations from a re-analysis of the deposited data

Results flagged for a closer look

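In 3 genes the wild-type and knockout arrays moved in opposite directions with TCDD, with no overlap between treated and control arrays in either genotype. They make up 7.14% of the 42 members, and 1.24% of all 23332 probe sets were likewise higher with TCDD in wild-type and lower in the knockout. Psmb2, the beta4 subunit of the core, lay higher with TCDD in wild-type and lower in the knockout, and the difference between the TCDD effects was -0.33 (adjusted p = 0.189, limma). Psmb4, the beta7 subunit, gave -0.39 (adjusted p = 0.216) and Psme3ip1, which is no subunit, -0.60 (adjusted p = 0.147). None of the 3 differences passed the test, and all 3 include the knockout corn oil arrays that lay apart from the other arrays on the first principal component. Once arrays were centred on the common median, the treated and control knockout arrays of Psmb4 and Psme3ip1 overlapped, and those of Psmb2 did not. No explanation was tested.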

How the results depend on the processing

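The count of 0 called members held in all 5 comparisons with the replicate block and after quantile normalization or median centring. With only the compared arrays it held in the pairwise comparisons, and the interaction was not fitted that way. A threshold of 0.01 could only give 0 again, and the lowest probe set of a gene was the same probe set for every member. With the replicate block the medians were the same (0.17 for knockout minus wild-type under corn oil). That block called 15, 860, 0, 43 and 0 probe sets over the whole array in the order of the text. Its count of 0 members was therefore fixed for the corn oil difference and the interaction. Same-numbered arrays did not deviate together (18 pairs, r between -0.21 and 0.11, 2 of them above 0.1), so the numbers were not taken as pairs. For knockout minus wild-type under corn oil, robust and trended empirical Bayes called 1 member (Psmb2), and leaving out the lowest 25% of probe sets called 2 of the 40 remaining (Psmb2 and Psme3ip1). Leaving out 1 array called 0 to 1 members for TCDD in the knockout, for the corn oil difference and for the interaction, the 1 being Psme3ip1 without knockout corn oil replicate 3. Lower values with no overlap for TCDD in the knockout numbered 6 after quantile normalization and 5 after median centring. Those counts were much nearer to the shares of all probe sets given above than the count with the deposited values. With 1 array left out they numbered 13 to 19, where 19.4% to 24.0% of all probe sets met the same rule, against 15.6% with all arrays. The median TCDD effect in the knockout was -0.06 without knockout TCDD replicate 1, against -0.13 with all arrays. Against the wild-type corn oil arrays it was 0.0483. Among named genes whose change had exceeded 1 SE in size, 6 changed sign. They were Psma7 (0.0933), Psmb4 (0.17), Psmb6 (0.10), Psme1 (0.04), Psme3ip1 (0.14) and Psmf1 (0.0133). Psmb8 (0.37), Psmb9 (0.29), Psmc2 (0.14), Psmd7 (0.33) and Psmb11 (-0.13) also changed sign, from changes smaller than 1 SE. The cause of these changes was not tested. Precision rests on 3 arrays a group, and probe sets of low level carry more noise.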
